A study of Mus musculus with 9 samples.

Results

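Group 2 innate lymphoid cells (ILC2s) from uninjured brain meninges were compared with ILC2s from uninjured lung, in 3 sequencing libraries of each tissue. The 6 libraries were chosen by their labels from the 9 libraries of the study. The other 3, from meninges 24 h after a spinal cord contusion, entered only an alternative analysis. Both groups were wild-type C57/Bl6 mice, 10 weeks old, with no injury and no treatment. Per the labels, live cells (DAPI-) that were CD45+ and lineage-negative and carried ST2, the IL-33 receptor, and Thy1 were sorted. RNA isolation used a PicoPure kit, and amplification used the Ovation RNA-Seq V2 system. Each group rested on 5 pooled mice, and the labels do not say whether its 3 libraries were separate pools, so the p-values below reflect differences among libraries that could be technical.

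ILC2s are tissue-resident lymphocytes without a rearranged antigen receptor. They answer alarmins such as IL-33 and IL-25, lipid mediators and neuropeptides, and they release type 2 cytokines and growth factors such as IL-5, IL-13 and amphiregulin. Lung ILC2s are a classical population of the airway, and meningeal ILC2s lie in the membranes around the brain.

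The libraries held 14386843 to 18253462 counts, and 15761 to 18452 genes had at least 1 count. Levels are given as counts per 1000000 library counts (CPM), after scaling by the trimmed mean of M values. In a single library, a count of 0 allows up to 3 counts, which is 0.165 to 0.225 CPM, a limit that covers counting error only. Across genes, which are not independent replicates, the Spearman correlation had a median of 0.86 within a tissue and 0.805 between tissues. The first principal component (37.7% of the variance) separated the tissues, and on the second (19.5%) lung 2 and meninges 2 lay on one side and the other 4 libraries on the other. The sort markers did not differ by the test. Il1rl1, which encodes ST2, had 1885, 2134 and 2515 CPM in meninges and 1885, 2457 and 2189 CPM in lung, and Ptprc, which encodes CD45, had 1316, 1549 and 1691 CPM in meninges and 1409, 1951 and 1559 CPM in lung. The ranges of both genes overlapped between the tissues. Thy1 had 282, 164 and 227 CPM in meninges and 155, 169 and 138 CPM in lung (log2 fold change 0.55 ± 0.24, SE; edgeR adjusted p = 0.26). Gata3, the transcription factor that ILC2s need, had 501, 499.5 and 641 CPM in meninges and 529.7, 639 and 523 CPM in lung and was level between the tissues within its error (-0.04 ± 0.18).

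Most of the genes that separated the tissues were lower in meningeal than in lung ILC2s. Of 14177 genes tested, 428 (3.02%) passed edgeR's quasi-likelihood test at an adjusted p under 0.05. Of these, 35 (0.247% of those tested) were higher and 393 (2.77%) were lower in meninges. The median log2 fold change over all genes, meninges over lung, was -0.02. The 3 meningeal values did not overlap the 3 lung values for all 35 higher and for 387 of the 393 lower genes, against 18.6% of all genes tested (7.42% with the meningeal values above and 11.1% with them below). At an unadjusted p under 0.05, 4.99% of all genes tested were higher and 10.9% lower in meninges, 15.9% together. Among the lower genes, 40 stood on marker lists of structural cells such as lung epithelium, endothelium and fibroblasts. They are described apart below, and 353 stood on none of these lists. Of the 393, 128 had at least 10 CPM in each meningeal library, with a median log2 fold change of -1.58. At the other end, 61 had under 1 CPM in each meningeal library, 48 of them on no structural list.

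**Figure D1:**
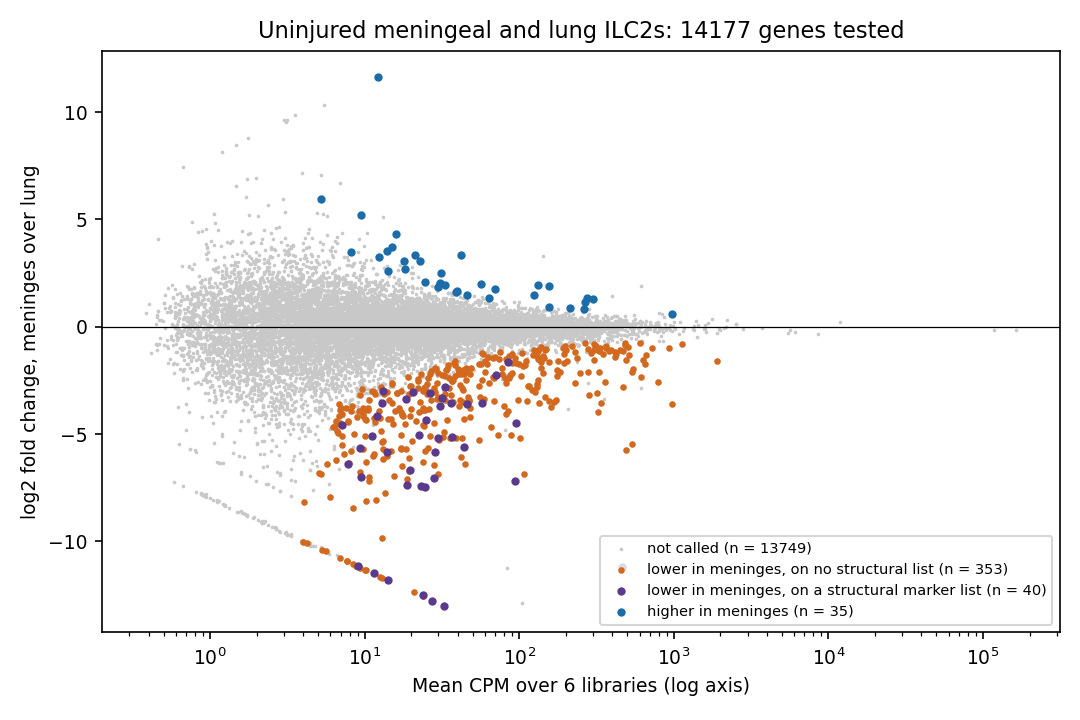
Mean CPM over the 6 libraries (x axis, log scale) against the log2 fold change of meninges over lung (y axis) for the 14177 genes tested, 1 point per gene. The 35 higher genes (blue) are outnumbered by the 353 lower genes on no structural list (orange) and the 40 on one (purple), and the straight line of points at the lower left holds genes at 0 in meninges, whose fitted fold change is no bound.

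Many calls were lost when a single library was left out, with 3 in each group. Such a fit also has fewer samples, so a lost call does not tie a gene to the library left out. Across 16 alternative analyses, which changed the scaling, filter, model or set of libraries, 6 higher and 95 lower genes were called in every analysis that tested them. Of these 95, 85 stood on no structural list and 48 had at least 10 CPM in each meningeal library. Without lung 2, 18 genes were higher and 364 lower. Without 1 of the other libraries in turn, 9 to 22 were higher and 158 to 276 lower. Genes called in every alternative that tested them are said to be so below. For most others the libraries without which the call was lost are named. Losses under a change of method are named for some genes only.

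The 6 genes that were higher in meninges in all 16 alternatives included a membrane protein of lymphocytes, a sialyltransferase, a presynaptic scaffold protein and a motor protein. Ms4a6b, a tetraspan protein of the MS4A family known from T cells, had 48.4, 77.2 and 104 CPM in meninges and 5.63, 1.65 and 14.5 CPM in lung. Its log2 fold change was 3.34 ± 0.54 (SE, edgeR adjusted p = 0.0014), and it was the 1 called gene among 7 tested members of the family. St3gal6, which adds sialic acid to the sugar chains that selectins bind, had 366, 353 and 390.3 CPM in meninges and 158, 170.2 and 166 CPM in lung. It differed by 1.17 ± 0.19 (adjusted p = 0.0017), the 1 call among 17 tested sialyltransferase genes, whose median was 0.18. Pclo, which encodes the scaffold protein Piccolo of nerve terminals, had 36.8, 40.2 and 38.1 CPM in meninges and 2.25, 2.78 and 6.18 CPM in lung, a log2 fold change of 3.34 ± 0.61 (adjusted p = 0.0033). In all of these genes the lowest meningeal library lay above the highest lung library. Kbtbd11, a BTB and kelch domain gene, had 456, 436 and 389.8 CPM in meninges and 248, 141 and 131 CPM in lung, a difference of 1.30 ± 0.24 (adjusted p = 0.0037). Myo6, a myosin that moves towards the minus end of actin filaments, had 227, 177 and 147 CPM in meninges and 77.8, 61.6 and 60.5 CPM in lung, a difference of 1.46 ± 0.27 (adjusted p = 0.0037). Among 18 tested myosin genes, Myo6 was the 1 called higher in meninges.

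Pclo is best known from neurons, so neuronal markers are given beside it. Rbfox3, Syt1 and Nefm, which mark neurons, were at 0 counts in all meningeal libraries. Snap25 had 55, 18 and 0 counts there, Nefl 44, 0 and 1, and Gap43 30, 0 and 0. Pclo had 669, 631 and 572 counts in the same libraries and 36, 37 and 96 in lung. Over the list of 40 neuronal, glial, choroid plexus and meningeal markers, 12 were tested and none was called by edgeR (3 higher and 2 lower at an unadjusted p under 0.05; 0 and 0 by DESeq2). The list's summed level was 194 to 351 CPM in meninges and 144 to 192 in lung, and 5 of the 32 in the table were at 0 in all meningeal libraries.

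The sixth gene was the T cell receptor gamma constant gene Tcrg-C1, which the rule for naming genes leaves out and which was chosen after its values were seen. It had 236, 263 and 235 CPM in meninges and 75.9, 80.6 and 40.4 CPM in lung, a log2 difference of 1.91 ± 0.27 (SE; edgeR adjusted p = 0.00037), and the tissues did not overlap. ILC2s are known to transcribe germline T cell receptor genes. The related Tcrg-C4, also outside the rule, had 344, 298 and 270.1 CPM in meninges and 232, 342 and 253 CPM in lung and overlapped (0.15 ± 0.21, adjusted p = 0.81). Reads could be split between these similar genes, so the values are uncertain. Cd3e, a chain of the T cell receptor complex chosen after its values were seen, had 10.1, 0.382 and 3.79 CPM in meninges and 8.76, 2.85 and 18.7 CPM in lung, which overlapped. Of the other CD3 chains, also chosen after their values were seen, Cd3d had 2.37, 0.446 and 30.4 CPM in meninges and 0.0625, 0.826 and 0.0644 CPM in lung (5.14 ± 1.90, adjusted p = 0.18; 0.0094 by DESeq2), with most in meninges 3, and Cd3g had 27.7, 8.21 and 2.33 CPM in meninges and 7.63, 6.38 and 5.02 CPM in lung (adjusted p = 0.57). Both overlapped between the tissues. None of 13 tested T cell markers was called by edgeR (2 higher and 1 lower at an unadjusted p under 0.05; 1 and 0 by DESeq2). Their summed level was 314 to 460 CPM in meninges and 257 to 351 CPM in lung. The part of T cell RNA in the level of Tcrg-C1 was not tested.

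**Figure D2:**
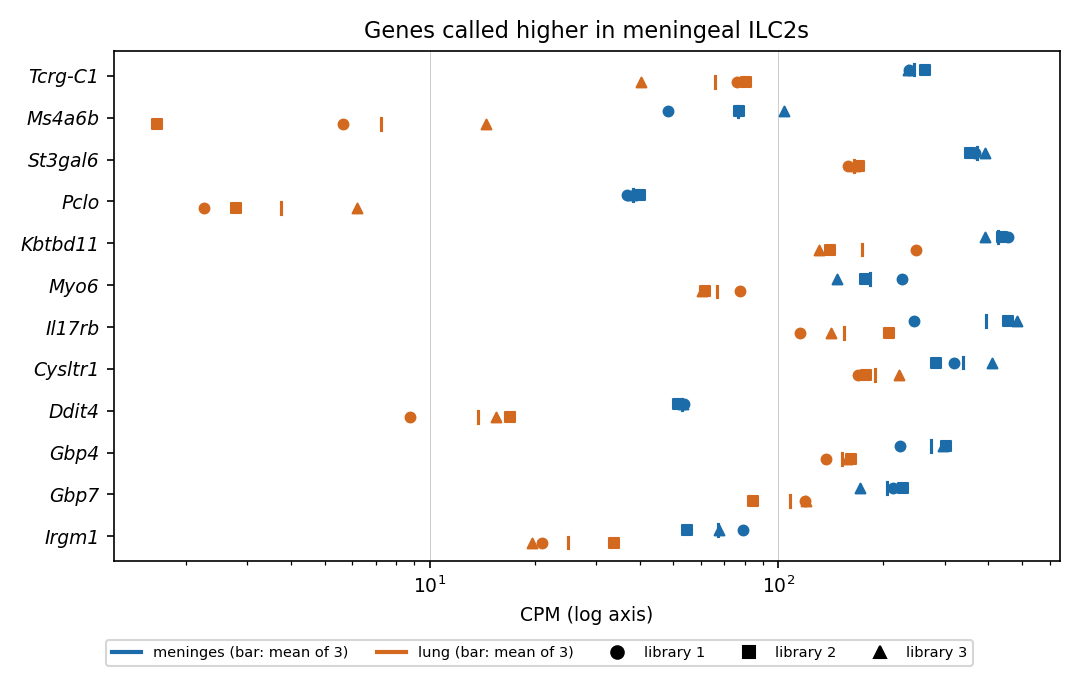
CPM of 12 genes called higher in meninges (x axis, log scale), with 1 symbol per library (blue, meninges; orange, lung) and a bar at the mean of 3. No orange symbol reaches the lowest blue symbol of its gene; Pclo lies at 36.8 to 40.2 CPM in meninges and 2.25 to 6.18 CPM in lung.

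Receptors for alarmins and lipid mediators were among the other higher genes. Il17rb, a chain of the receptor for IL-25, had 245, 455 and 482 CPM in meninges and 115, 207 and 141 CPM in lung. It was higher by 1.35 ± 0.27 on the log2 scale (SE, edgeR adjusted p = 0.0079), without overlap. Il17rb was called in 12 of 16 alternatives, with adjusted p from 0.00023 to 0.091, and not without meninges 2 (0.091), meninges 3 (0.084), lung 1 (0.076) or lung 3 (0.075). Cysltr1, the receptor for cysteinyl leukotrienes, had 318, 284 and 411 CPM in meninges and 169, 178 and 221 CPM in lung, a difference of 0.83 ± 0.21 (adjusted p = 0.043). Cysltr1 was called in 8 of 16 alternatives, with adjusted p from 0.0096 to 0.21, and not without meninges 1 (0.1), meninges 2 (0.085), meninges 3 (0.21), lung 1 (0.18), lung 2 (0.13) or lung 3 (0.074). The receptors for IL-33 (Il1rl1, above) and neuromedin U did not pass the test, since Nmur1 had 58.2, 82.1 and 66.7 CPM in meninges and 66.8, 83.4 and 52.3 CPM in lung (0.03 ± 0.31).

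Interferon-induced genes leaned upward in meninges. Of 31 listed, 28 were tested, 3 were called higher and none lower by edgeR, against 0.247% and 2.77% of all genes (9 higher and 1 lower at an unadjusted p under 0.05; 5 and 0 by DESeq2), and the median log2 fold change was 0.62 against -0.02. Their summed level was 1100, 1150 and 1120 CPM in the meningeal libraries and 629, 594 and 729 CPM in the lung libraries, with no overlap. Gbp4, a guanylate-binding protein of cell-autonomous defence, had 224, 303 and 296 CPM in meninges and 136, 161 and 157 CPM in lung, a difference of 0.85 ± 0.22 (SE, edgeR adjusted p = 0.039). Gbp7, of the same family, had 213, 228 and 171 CPM in meninges and 119, 84.7 and 119.8 CPM in lung (0.92 ± 0.24, adjusted p = 0.048). Irgm1, an immunity-related GTPase, had 79.2, 54.7 and 67.3 CPM in meninges and 21.01, 33.8 and 19.7 CPM in lung (1.46 ± 0.38, adjusted p = 0.047). None of these 3 genes overlapped between the tissues, but all were close to the threshold. Gbp4 was called in 7 of 16 alternatives, with adjusted p from 0.006 to 0.2, and not without meninges 1 (0.052), meninges 2 (0.2), meninges 3 (0.15), lung 1 (0.16), lung 2 (0.086) or lung 3 (0.12). Gbp7 was called in 5 of 16 alternatives, with adjusted p from 0.01 to 0.22, and not without meninges 1 (0.15), meninges 2 (0.22), meninges 3 (0.07), lung 1 (0.11), lung 2 (0.16) or lung 3 (0.12). Irgm1 was called in 7 of 16 alternatives, with adjusted p from 0.0064 to 0.19, and not without meninges 1 (0.18), meninges 2 (0.1), meninges 3 (0.13), lung 1 (0.18) or lung 3 (0.19).

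Ifit1 and Tap1 of the same list were higher in every meningeal library than in any lung library without passing the test. Tgtp1 and Parp9, which are on no list here, are named because they lay near the threshold, by a rule that takes only genes higher in meninges. Ifit1, an RNA-binding antiviral protein, had 34.2, 20.2 and 17.6 CPM in meninges and 6.50, 4.43 and 3.22 CPM in lung (2.36 ± 0.66, SE; edgeR adjusted p = 0.063). Tgtp1, a T cell GTPase induced by interferon gamma, had 31.4, 27.6 and 28.9 CPM in meninges and 3.63, 5.78 and 12.04 CPM in lung (adjusted p = 0.072), and Tap1, the peptide transporter for MHC class I, had 43.5, 88.2 and 93.5 CPM in meninges and 34.6, 15.3 and 31.4 CPM in lung (adjusted p = 0.073). Parp9 had 77.5, 47.9 and 45.7 CPM in meninges and 22.8, 17.2 and 21.6 CPM in lung (adjusted p = 0.063). The tissues did not overlap in these 4 genes. Ifngr1, which encodes the ligand-binding interferon gamma receptor subunit, went the other way, with 89.6, 59.5 and 134 CPM in meninges and 184, 214 and 198 CPM in lung (-1.08 ± 0.27, adjusted p = 0.04). Ifngr1 was called in 8 of 16 alternatives, with adjusted p from 0.013 to 0.22, and not without meninges 1 (0.15), meninges 2 (0.22), lung 1 (0.1), lung 2 (0.13) or lung 3 (0.17).

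The remaining higher genes named by the rule had varied roles. Some act in lipoic acid and glycine metabolism in mitochondria. Lias, lipoic acid synthetase, had 32.9, 40.7 and 66.5 CPM in meninges and 13.3, 9.76 and 15.3 CPM in lung (1.84 ± 0.49, SE; edgeR adjusted p = 0.048), and Gcsh, a lipoate-carrying protein of glycine cleavage, had 16.2, 13.6 and 47.2 CPM in meninges and 0.813, 4.43 and 1.61 CPM in lung (3.53 ± 0.86, adjusted p = 0.026). Lias was called in 6 of 16 alternatives, with adjusted p from 0.003 to 0.21, and not without meninges 1 (0.07), meninges 2 (0.13), meninges 3 (0.21), lung 1 (0.15), lung 2 (0.13) or lung 3 (0.14). Gcsh was called in 12 of 16 alternatives, with adjusted p from 0.00045 to 0.17, and not without meninges 3 (0.14), lung 1 (0.16) or lung 3 (0.17). Ddit4, an inhibitor of mTOR signalling, had 53.7, 51.6 and 53.4 CPM in meninges and 8.76, 16.97 and 15.5 CPM in lung (1.96 ± 0.44, adjusted p = 0.017). Ddit4 was called in 10 of 16 alternatives, with adjusted p from 0.00035 to 0.1, and not without meninges 1 (0.074), meninges 2 (0.079), meninges 3 (0.061), lung 1 (0.1) or lung 3 (0.073). Polr2e, a subunit shared by the RNA polymerases, had 28.9, 37.2 and 56.1 CPM in meninges and 2.44, 6.16 and 6.05 CPM in lung (3.07 ± 0.61, adjusted p = 0.007). Polr2e was called in 14 of 16 alternatives, with adjusted p from 4.4e-06 to 0.091, and not without lung 1 (0.059). Itpripl1 had 65.9, 46.7 and 46.5 CPM in meninges and 5.13, 6.91 and 16.1 CPM in lung (2.50 ± 0.50, adjusted p = 0.0081). Itpripl1 was called in 14 of 16 alternatives, with adjusted p from 9.6e-05 to 0.067, and not without meninges 1 (0.067) or lung 1 (0.066). Sgol1, which encodes the shugoshin that protects centromeric cohesion, had 13.7, 18.3 and 23.5 CPM in meninges and 1.13, 0 and 0.258 CPM in lung (5.20 ± 1.11, adjusted p = 0.011). Sgol1 was called in 12 of 16 alternatives, with adjusted p from 8e-06 to 0.087, and not without lung 1 (0.067) or lung 3 (0.087). Of 15 tested genes of a cell cycle list that does not hold Sgol1, none was called by edgeR (1 higher and 0 lower at an unadjusted p under 0.05; 0 and 0 by DESeq2), and their median was 0.45.

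Rcn1, a calcium-binding protein of the endoplasmic reticulum, had 72.6, 58.2 and 141 CPM in meninges and 32.4, 19.6 and 15.5 CPM in lung (1.99 ± 0.43, SE; edgeR adjusted p = 0.013). Rcn1 was called in 13 of 16 alternatives, with adjusted p from 0.00021 to 0.11, and not without meninges 3 (0.11), lung 2 (0.065) or lung 3 (0.11). Slco1a4, an organic anion transporter known from brain endothelium and choroid plexus, had 54.4, 4.77 and 13.4 CPM in meninges and was at 0 in all 3 lung libraries, at least 120-fold higher (at least 45.1-fold without meninges 1). Slco1a4 was called in 9 of 15 alternatives, with adjusted p from 9.7e-11 to 0.17, and not without meninges 1 (0.12), meninges 3 (0.084), lung 1 (0.14), lung 2 (0.11) or lung 3 (0.17). It was highest in meninges 1, the meningeal library with the most RNA of structural marker genes (summed CPM 1750, against 508 and 931 in meninges 2 and 3). Whether other cells contributed to its level was not tested. The other higher genes named by the rule were Xk, Mex3a, Phf6, Cnot6l, Rundc1, Gcnt7, Bcl7a, Gatm, Cand2 and Tmem91, with log2 fold changes from 0.61 for Cnot6l, a deadenylase subunit, to 5.95 for Gatm, which makes the creatine precursor. Each of these 10 lost its call without at least 4 of the 6 libraries, taken 1 at a time (adjusted p from 0.061 to 0.29 where lost).

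A further set of genes lay just short of the threshold and higher in meninges, with no overlap between the tissues. Itga4, the integrin chain that binds VCAM-1, had 907, 996 and 1130 CPM in meninges and 667, 765 and 603 CPM in lung (0.58 ± 0.16, SE; edgeR adjusted p = 0.066). Rgs1, a brake on chemokine receptor signalling, had 267, 336 and 367 CPM in meninges and 138, 204 and 222 CPM in lung (0.78 ± 0.23, adjusted p = 0.073), whereas the related Rgs2 was lower in meninges (below). Mdfic had 899, 998 and 1008 CPM in meninges and 748, 634 and 505 CPM in lung and Lztfl1 had 272, 329.5 and 487 CPM in meninges and 176, 230.4 and 205 CPM in lung (adjusted p = 0.059 and 0.063). Ada, adenosine deaminase, had 11.7, 18.97 and 39.3 CPM in meninges and 2.38, 2.70 and 5.09 CPM in lung (adjusted p = 0.062). The set of 15 chosen by the rule ran from an adjusted p of 0.057 for Ttpal to 0.077 for Zfp84, and none of the 15 passed. Ccr9, the receptor for the chemokine CCL25, had 77.04, 125 and 209 CPM in meninges and 43.7, 76.2 and 63.5 CPM in lung (1.16 ± 0.35, adjusted p = 0.089).

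Immediate early genes, which cells switch on within minutes of a stimulus, made up a large group of lower genes. Of 30 listed, 28 were tested, 12 were called lower and none higher by edgeR, against 2.77% of all genes lower (1 higher and 19 lower at an unadjusted p under 0.05; 1 and 13 by DESeq2). The median log2 fold change was -1.68, against -0.02 over all genes. Of the 28, 25 had a negative and 3 a positive fold change. The 1 higher at an unadjusted p under 0.05 was Myc, a growth regulator chosen after its values were seen, at a mean of 82.2 CPM in meninges and 37.6 CPM in lung (log2 fold change 1.11, adjusted p = 0.11). Their summed level was 1330, 1480 and 3040 CPM in meninges and 5850, 9450 and 9160 CPM in lung. In bulk libraries, fewer expressing cells and less RNA per cell cannot be told apart. Nr4a3, an orphan nuclear receptor induced by activation, had 7.26, 24 and 23.6 CPM in meninges and 515, 1122 and 1255 CPM in lung, a log2 difference of -5.75 ± 0.38 (SE; edgeR adjusted p = 1e-07). Gadd45b, a stress sensor that acts on MAP kinase signalling, had 3.03, 0.509 and 4.66 CPM in meninges and 67.4, 139 and 114 CPM in lung (-5.28 ± 0.57, adjusted p = 2e-05). Dusp1, a phosphatase that switches MAP kinases off, had 12.8, 32.7 and 37.2 CPM in meninges and 230.4, 375 and 321 CPM in lung (-3.51 ± 0.33, adjusted p = 6.8e-06). Atf3, a stress-induced repressor, was at 0 in all 3 meningeal libraries and had 26.6, 48.2 and 50.5 CPM in lung, at least 225-fold lower. These 4 genes were called in all 16 alternatives, and in each the meningeal values lay far below the lung values.

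Other members of the list were nearer to the threshold. Nr4a1, a close relative of Nr4a3, had 4.07, 11.7 and 59.7 CPM in meninges and 611, 1362 and 1174 CPM in lung (-5.44 ± 0.78, SE; edgeR adjusted p = 0.022). It was called in 13 of 16 alternatives (adjusted p from 6.8e-06 to 0.14), and not without a filter on low counts (0.092), with a stricter filter (0.061) or with the older form of the test (0.14). Zfp36, which binds AU-rich cytokine messages and promotes their decay, had 62.4, 75.2 and 215 CPM in meninges and 546, 999 and 914 CPM in lung (-2.81 ± 0.41, adjusted p = 0.0032). It was called in 14 of 16 alternatives (adjusted p from 4.7e-05 to 0.054) and not without a filter (0.054) or with a stricter one (0.05). Junb, an AP-1 subunit, had 37.9, 76.95 and 164 CPM in meninges and 224, 382 and 282 CPM in lung (-1.69 ± 0.36, adjusted p = 0.013). Junb was called in 10 of 16 alternatives, with adjusted p from 0.0012 to 0.13, and not without meninges 1 (0.074), meninges 2 (0.13), lung 2 (0.099) or lung 3 (0.08). Meninges 3 was the highest meningeal library for all 3 genes. Fos and Egr1, the best-known members, were not called. Fos had 5.50, 9.29 and 88.3 CPM in meninges and 75.2, 79.4 and 123 CPM in lung (-1.49 ± 0.65, adjusted p = 0.28), and Egr1 had 40.2, 119 and 339 CPM in meninges and 280.5, 478 and 364 CPM in lung (-1.19 ± 0.70, adjusted p = 0.51). In both, meninges 3 reached into the lung range, and without it both were called lower (adjusted p = 0.0027 for Fos and 0.0087 for Egr1). Over all alternatives the adjusted p of Fos ran from 0.0027 to 0.68 and that of Egr1 from 0.0087 to 0.77.

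Targets and regulators of NF-kB, the transcription factor that inflammatory receptors activate, were lower as well. Of 22 listed, 21 were tested, 7 were called lower and none higher by edgeR, against 2.77% of all genes called lower. At an unadjusted p under 0.05, 1 was higher and 11 lower, and DESeq2 called 1 and 7. The median log2 fold change was -1.02. Tnfaip3, the gene of A20, a ubiquitin-editing inhibitor of NF-kB, had 130.2, 129 and 183 CPM in meninges and 1505, 1991 and 1908 CPM in lung, a difference of -3.61 ± 0.19 (SE, edgeR adjusted p = 4.9e-09). Nfkbia, which encodes the inhibitor IkB alpha, had 25.5, 23.4 and 35.2 CPM in meninges and 119, 227 and 332 CPM in lung (-3.02 ± 0.37, adjusted p = 0.00011). Rel, a subunit of NF-kB itself, had 58.9, 42.6 and 75.9 CPM in meninges and 178, 305 and 391 CPM in lung (-2.30 ± 0.31, adjusted p = 0.00021). All 3 were called in all 16 alternatives without overlap of the tissues. Nfkbid, a nuclear IkB protein, had 21.5, 37.9 and 44.3 CPM in meninges and 126, 223 and 164 CPM in lung (-2.32 ± 0.33, adjusted p = 0.00038), also called in all 16. The summed level of the list was 1590, 2040 and 2290 CPM in meninges and 4240, 6210 and 5530 CPM in lung.

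The feedback phosphatases Dusp10 and Dusp5 were the 2 called of 11 tested MAP kinase feedback genes, both lower, with a list median of -1.52. Over all genes, edgeR called 2.77% lower. Of the 11, 0 were higher and 7 lower at an unadjusted p under 0.05, and DESeq2 called 0 and 3. Dusp10, which acts on stress-activated kinases, had 2.20, 2.04 and 18.2 CPM in meninges and 58.03, 79.7 and 88.5 CPM in lung (-3.40 ± 0.56, SE; edgeR adjusted p = 0.0014). Dusp10 was called in 15 of 16 alternatives (adjusted p from 4.4e-05 to 0.064) and not with the older form of the test (0.064). Dusp5, which acts on ERK, had 14.03, 19.1 and 23.2 CPM in meninges and 47.8, 96.8 and 70.4 CPM in lung (-1.93 ± 0.41, adjusted p = 0.013). Dusp5 was called in 12 of 16 alternatives, with adjusted p from 0.00021 to 0.09, and not without meninges 1 (0.09), meninges 2 (0.082), lung 2 (0.075) or lung 3 (0.073). A list of heat shock and unfolded protein response genes, called the heat shock list below, gave 6 lower and no higher calls by edgeR. This was among 21 tested, against 2.77% of all genes called lower, and the list median was -0.62. At an unadjusted p under 0.05, 0 were higher and 10 lower, and DESeq2 called 0 and 8. Hsp90aa1, the inducible form of HSP90, had 105, 90.1 and 74.8 CPM in meninges and 188, 600.2 and 429.7 CPM in lung (-2.16 ± 0.33, adjusted p = 0.00066), and was called in all 16 alternatives. Hspa1b, an inducible HSP70, had 3.58, 0.636 and 1.06 CPM in meninges and 15.6, 73.9 and 47.3 CPM in lung (-4.58 ± 0.81, adjusted p = 0.002), also in all 16. Its near-identical copy Hspa1a was at 0 in meninges and had 3.44, 58.2 and 81.8 CPM in lung, at least 258-fold lower (at least 166-fold without lung 3). Hspa1a was called in 9 of 15 alternatives, with adjusted p from 1.2e-06 to 0.11, and not without meninges 1 (0.083), meninges 2 (0.082), meninges 3 (0.079), lung 2 (0.06) or lung 3 (0.11). Reads could be split between the 2 copies, so both values are uncertain. A list of messenger RNA decay genes, which does not hold Zfp36 or Cnot6l, gave no call among 10 tested by edgeR (0 higher and 2 lower at an unadjusted p under 0.05; 0 and 1 by DESeq2), with a median of -0.18.

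The lung libraries differed in these genes. Lung 1 was the lowest lung library for 25 of the 27 lower genes of the immediate early, MAP kinase, NF-kB and heat shock lists (92.6%), against 31.8% of all genes tested. Structural marker genes had another order, with summed levels of 7560, 2960 and 6870 CPM in lung 1 to 3. Lung 2, with the least RNA of structural markers, had the highest summed level of the immediate early, NF-kB and heat shock lists. Lung 3 was high in both, with 9160 CPM of immediate early genes against 5850 CPM in lung 1 and 9450 CPM in lung 2. In the plot of list sums, every lung library lies above every meningeal library for the 4 lists of the upper row.

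**Figure D3:**
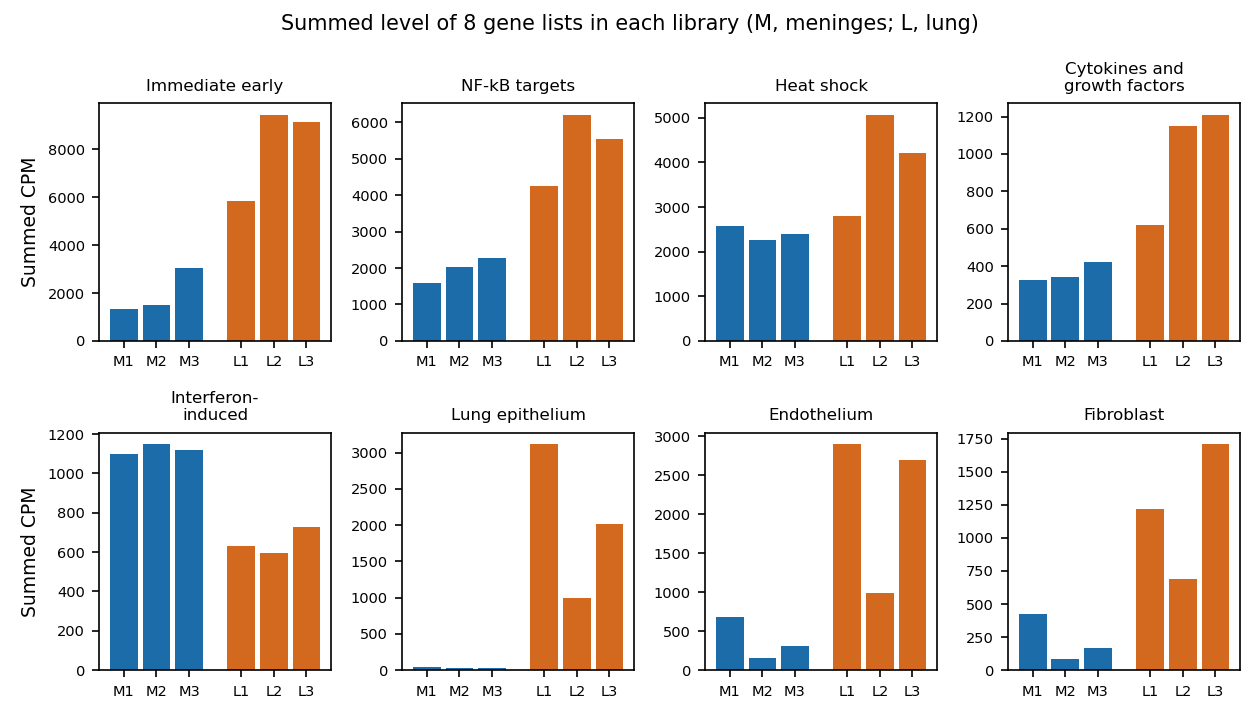
Summed CPM (y axis, starting at 0) of 8 gene lists in each of 3 meningeal (M, blue) and 3 lung (L, orange) libraries; each panel has its own scale. Lung 1 has the lowest lung bar in the upper row and lung 2 the lowest for lung epithelium, endothelium and fibroblast; interferon-induced genes are higher in all 3 meningeal libraries.

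The stretches before the start site are shown for 5 of the lower genes, because they hold motifs of the factors that induce such genes. Each is the 150 bases before the annotated start, 5′ to 3′ on the strand of the gene, from the RefSeq promoter table of build GRCm38.p6. Capitals mark matches to the NF-kB consensus in Tnfaip3 and Rel, to the CRE (TGACGTCA), the site of CREB, in Dusp1 and Areg, and to the CArG box, the site of serum response factor, in Zfp36. The Tnfaip3 stretch lies at chr10:19015411-19015560 (minus strand), that of Rel at chr11:23770970-23771119 (minus), Dusp1 at chr17:26508473-26508622 (minus), Areg at chr5:91139449-91139598 (plus) and Zfp36 at chr7:28379229-28379378 (minus).
Tnfaip3: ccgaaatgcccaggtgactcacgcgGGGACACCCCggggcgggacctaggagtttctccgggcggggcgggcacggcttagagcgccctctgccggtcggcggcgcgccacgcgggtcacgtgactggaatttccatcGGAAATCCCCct
Rel: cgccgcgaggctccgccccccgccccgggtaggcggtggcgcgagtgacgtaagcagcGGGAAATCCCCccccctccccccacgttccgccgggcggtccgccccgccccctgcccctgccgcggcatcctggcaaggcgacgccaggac
Dusp1: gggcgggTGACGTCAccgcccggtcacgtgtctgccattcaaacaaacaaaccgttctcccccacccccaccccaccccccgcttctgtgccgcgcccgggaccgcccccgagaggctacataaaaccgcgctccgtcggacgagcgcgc
Areg: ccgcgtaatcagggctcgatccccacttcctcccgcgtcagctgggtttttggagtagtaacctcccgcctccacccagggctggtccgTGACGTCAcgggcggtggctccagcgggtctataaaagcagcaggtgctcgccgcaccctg
Zfp36: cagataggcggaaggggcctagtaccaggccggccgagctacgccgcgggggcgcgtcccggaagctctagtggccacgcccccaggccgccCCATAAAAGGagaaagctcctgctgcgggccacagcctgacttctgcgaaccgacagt

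The motifs were counted on both strands in the 250 bases before each start. Of 26 lower genes on the immediate early, MAP kinase, NF-kB and cytokine lists, 22 had a promoter in the table. An NF-kB consensus match was present in 7 of the 22 (31.8%), against 8.23% of 27025 genes in the table, and a CRE in 4 (18.2%, against 1.77%), namely Maff, Dusp1, Nfkbid and Areg. A CArG box was present in 2 (9.09%, against 1.62%) and an AP-1 motif (TGANTCA) in 3 (13.6%, against 7.82%). The NF-kB consensus matches of Maff, Nfkbia, Nfkbid, Rel, Tnfaip3, Lif and Vegfa are descriptions of these letters only, and the genes were chosen with their results known. Several of these lists were assembled from known targets of the factors, so the shares carry no independent weight. In Tnfaip3 the matches began 125 and 12 bases before the start, and in Rel 2 overlapping matches began 92 and 91 bases before it. The CRE began 143 bases before the start of Dusp1 and 61 bases before that of Areg, and the CArG box 58 bases before that of Zfp36.

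Of 18 tested cytokine and growth factor genes, 5 were lower in meninges and none higher by edgeR, against 2.77% of all genes called lower. At an unadjusted p under 0.05, 1 was higher and 10 lower, and DESeq2 called 0 and 6. The list median was -1.28. Areg, which encodes the epithelial growth factor amphiregulin, had 11.7, 19.5 and 25.7 CPM in meninges and 68.8, 326 and 223 CPM in lung, a log2 difference of -3.45 ± 0.49 (SE; edgeR adjusted p = 0.00037). Vegfa, a growth factor for blood vessels, had 0.220, 2.67 and 0.266 CPM in meninges and 72.9, 24.7 and 54.4 CPM in lung (-5.64 ± 0.82, adjusted p = 0.00024). Both were called in all 16 alternatives. Vegfa was lowest in lung 2, as were most structural markers, and the part of other lung cells in its level was not tested. Calca, the gene of calcitonin gene-related peptide and calcitonin, had 3.03, 0.573 and 12.3 CPM in meninges and 80.05, 202 and 229.7 CPM in lung (-5.05 ± 0.57, adjusted p = 5.5e-05). It was called in 15 of 16 alternatives (adjusted p from 2.1e-06 to 0.063) and not with the older form of the test (0.063). Lif, a cytokine of the IL-6 family, had 16.1, 30.2 and 50.7 CPM in meninges and 56.2, 148 and 159.8 CPM in lung (-1.93 ± 0.43, adjusted p = 0.017). Lif was called in 11 of 16 alternatives, with adjusted p from 0.0015 to 0.17, and not without meninges 1 (0.13), meninges 2 (0.12), lung 2 (0.097) or lung 3 (0.17). Csf2, which encodes GM-CSF, had 6.66, 3.44 and 22.97 CPM in meninges and 16.01, 80.3 and 118 CPM in lung (-2.73 ± 0.67, adjusted p = 0.031), and its ranges overlapped. Csf2 was called in 10 of 16 alternatives, with adjusted p from 0.0031 to 0.27, and not without meninges 1 (0.18), meninges 2 (0.21), meninges 3 (0.053), lung 2 (0.11) or lung 3 (0.27).

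The signature cytokines of ILC2s did not pass the test. Il5, the eosinophil growth factor, had 2.97, 4.07 and 23.97 CPM in meninges and 24.8, 24.2 and 95.8 CPM in lung (-2.30 ± 0.70, SE; edgeR adjusted p = 0.091). Il13 had 10.9, 2.29 and 7.72 CPM in meninges and 7.07, 14.6 and 10.9 CPM in lung, with overlapping ranges (-0.58 ± 0.72, adjusted p = 0.77). Il4 had 2.81, 6.49 and 9.52 CPM in meninges and 1.44, 0.676 and 0 CPM in lung (3.08 ± 1.16, adjusted p = 0.18), so its values were higher in meninges without overlap. Il13 and Il4 were scarce in both tissues, and the median standard error of genes with a mean under 10 CPM was 1.01 on the log2 scale. Arg1, the arginase of ILC2s, had 136, 179.8 and 182 CPM in meninges and 151, 299 and 157 CPM in lung (-0.28 ± 0.27, adjusted p = 0.69).

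**Figure D4:**
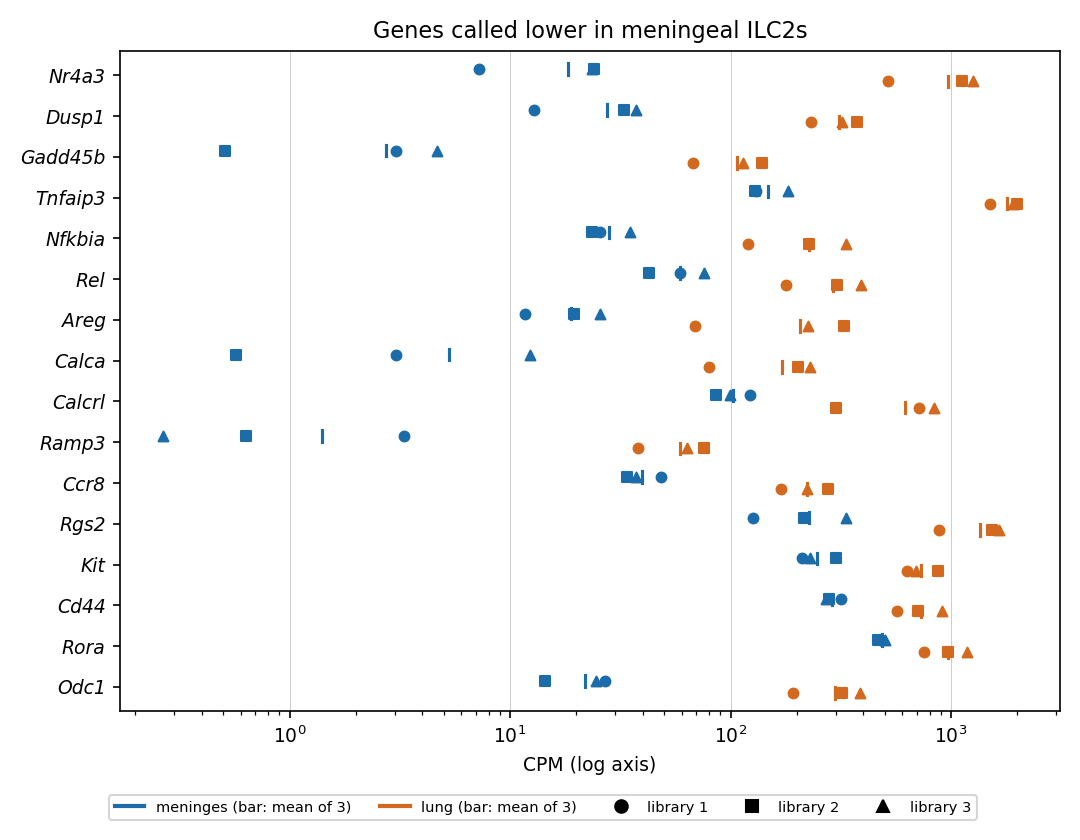
CPM of 16 genes called lower in meninges (x axis, log scale), with 1 symbol per library (blue, meninges; orange, lung) and a bar at the mean of 3. No blue symbol reaches the lowest orange symbol of its gene; Tnfaip3 lies at 129 to 183 CPM in meninges and 1505 to 1991 CPM in lung.

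Receptors for neuropeptides and lipid mediators leaned downward in meninges. Of 26 tested, 3 were called lower and 1 higher (Cysltr1, above) by edgeR, against 2.77% and 0.247% of all genes. At an unadjusted p under 0.05, 1 was higher and 6 lower, and DESeq2 called 1 and 3. Of the 26, 20 had a negative fold change, and the median was -0.42. Summed levels did not overlap, at 1920 to 2390 CPM in meninges and 2710 to 3070 CPM in lung. Calcrl, the receptor that binds calcitonin gene-related peptide or adrenomedullin with a RAMP partner, had 123, 86.1 and 98.9 CPM in meninges and 712, 299.5 and 835 CPM in lung (-2.58 ± 0.30, SE; edgeR adjusted p = 7.7e-05). Ramp3, such a partner, had 3.30, 0.636 and 0.266 CPM in meninges and 37.96, 76.1 and 63.6 CPM in lung (-5.27 ± 0.70, adjusted p = 0.00012). Both were called in all 16 alternatives without overlap. Ramp1, the partner that gives the classical receptor for the peptide, was named after its values were seen and had 27.02, 50.3 and 20.04 CPM in meninges and 49.9, 54.1 and 20.2 CPM in lung, which overlapped (-0.34 ± 0.46, adjusted p = 0.8). Calcrl is also strong in lung endothelium, and its lung values were lowest in lung 2, as were those of the endothelial gene Pecam1 (197, 79.8 and 141 CPM, named after its values were seen), while Ramp3 was highest in lung 2. The part of endothelial RNA in these levels was not tested. Vipr2, a receptor for vasoactive intestinal peptide, had 67.5, 92.3 and 97.6 CPM in meninges and 173, 224 and 140 CPM in lung (-1.06 ± 0.27, adjusted p = 0.034). Vipr2 was called in 7 of 16 alternatives, with adjusted p from 0.0067 to 0.16, and not without meninges 1 (0.16), meninges 2 (0.13), meninges 3 (0.082), lung 1 (0.1), lung 2 (0.15) or lung 3 (0.064).

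Among 20 tested genes of chemokines and trafficking, Ccr8, S1pr1 and Ccl3 were called lower and none higher by edgeR, against 2.77% of all genes called lower. At an unadjusted p under 0.05, 1 was higher and 6 lower, and DESeq2 called 1 and 3. Ccr8, a chemokine receptor of type 2 lymphocytes, had 48.1, 33.9 and 37.4 CPM in meninges and 169.8, 277 and 222 CPM in lung (-2.47 ± 0.29, SE; edgeR adjusted p = 6.5e-05), and was called in all 16 alternatives. S1pr1, the receptor that guides lymphocytes out of tissue, had 5.45, 1.97 and 2.66 CPM in meninges and 41.6, 13.7 and 31.2 CPM in lung (-3.08 ± 0.71, adjusted p = 0.019). S1pr1 was called in 10 of 16 alternatives, with adjusted p from 0.00021 to 0.13, and not without meninges 1 (0.062), meninges 2 (0.13), meninges 3 (0.098), lung 1 (0.11) or lung 3 (0.096). It was lowest in lung 2, as were most structural markers, and the part of other lung cells in its level was not tested. Ccl3, a chemokine, had 1.10, 0 and 0.0666 CPM in meninges and 13.7, 15.5 and 9.34 CPM in lung (-4.87 ± 1.19, adjusted p = 0.028). Ccl3 was called in 8 of 15 alternatives, with adjusted p from 0.0012 to 0.14, and not without meninges 1 (0.1), meninges 2 (0.14), meninges 3 (0.11), lung 1 (0.079), lung 2 (0.058) or lung 3 (0.068). Ccr2, the receptor for CCL2, had 1395, 1228 and 1467 CPM in meninges and 1066, 1434 and 1545 CPM in lung (0.02 ± 0.16). Cxcr4 had 94.3, 77.3 and 10.8 CPM in meninges and 121, 108 and 111 CPM in lung (-0.88 ± 0.43, adjusted p = 0.33), and Cd69, which retains lymphocytes in tissue, had 74.8, 148 and 205 CPM in meninges and 208, 168 and 160.3 CPM in lung (-0.34 ± 0.30, adjusted p = 0.65).

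Adhesion genes gave 4 lower and no higher calls among 23 tested by edgeR, against 2.77% of all genes called lower. At an unadjusted p under 0.05, 1 was higher and 5 lower, and DESeq2 called 1 and 3. Cd44, the hyaluronan receptor, had 316, 279 and 271 CPM in meninges and 571, 710 and 909 CPM in lung (-1.34 ± 0.19, SE; edgeR adjusted p = 0.00047), and was called in all 16 alternatives. The integrin chains Itgb1, with 104, 74.5 and 113 CPM in meninges and 215, 135 and 255 CPM in lung (-1.06 ± 0.27, adjusted p = 0.043), and Itgav, with 139.9, 140.3 and 176 CPM in meninges and 207, 331 and 319 CPM in lung (-0.91 ± 0.23, adjusted p = 0.041), were near the threshold. Itgb1 was called in 7 of 16 alternatives, with adjusted p from 0.013 to 0.27, and not without meninges 1 (0.12), meninges 2 (0.23), meninges 3 (0.096), lung 1 (0.16) or lung 3 (0.27). Itgav was called in 6 of 16 alternatives, with adjusted p from 0.01 to 0.22, and not without meninges 1 (0.16), meninges 2 (0.2), meninges 3 (0.08), lung 2 (0.16) or lung 3 (0.22). Itga1, the collagen-binding alpha 1 chain, overlapped, with 17.9, 2.16 and 0.200 CPM in meninges and 104, 7.96 and 84.6 CPM in lung (-3.19 ± 0.79, adjusted p = 0.033). Itga1 was called in 7 of 16 alternatives, with adjusted p from 0.0059 to 0.44, and not without meninges 2 (0.21), meninges 3 (0.2), lung 1 (0.2) or lung 3 (0.19). Its call was also lost with upper-quartile scaling (0.054), no filter (0.15), a stricter filter (0.15), DESeq2 (0.31) and the older form of the test (0.44). Itga1 and Itgb1 were lowest in lung 2, as were most structural markers, and the part of other lung cells in their levels was not tested. Rgs2, a regulator of G protein signalling, had 127, 216 and 334 CPM in meninges and 882, 1534 and 1643 CPM in lung (-2.59 ± 0.29, adjusted p = 5.5e-05) and was the 1 call among 16 RGS and related genes, held in all 16 alternatives.

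Cytokine receptors, costimulatory receptors and checkpoints gave few calls. Of 28 cytokine receptor genes, Ifngr1 (above) and Tgfbr3 were called lower and none higher by edgeR, against 2.77% of all genes called lower. At an unadjusted p under 0.05, 0 were higher and 8 lower, and DESeq2 called 0 and 3. Of the 28, 24 had a negative fold change, and the median was -0.39. Summed levels did not overlap, at 1480 to 1650 CPM in meninges and 1950 to 2070 CPM in lung. Tgfbr3, a TGF-beta coreceptor, had 21.5, 15.3 and 3.13 CPM in meninges and 81.7, 42.3 and 38.8 CPM in lung (-1.99 ± 0.52, SE; edgeR adjusted p = 0.047). Tgfbr3 was called in 6 of 16 alternatives, with adjusted p from 0.02 to 0.26, and not without meninges 1 (0.076), meninges 2 (0.17), meninges 3 (0.18), lung 1 (0.26), lung 2 (0.076) or lung 3 (0.099). Il7r had 1548, 1268 and 1075 CPM in meninges and 1469, 1512 and 1284 CPM in lung and Il2ra had 1570, 1185 and 1112 CPM in meninges and 1275, 1793 and 1076 CPM in lung; these receptors for survival and growth cytokines differed by -0.13 ± 0.16 and -0.10 ± 0.19. None of 15 costimulatory genes was called by edgeR (0 higher and 2 lower at an unadjusted p under 0.05; 0 and 1 by DESeq2), and the smallest p belonged to Tnfrsf9, which encodes 4-1BB, with 3.25, 1.59 and 0.200 CPM in meninges and 14.1, 9.91 and 16.9 CPM in lung (adjusted p = 0.07). Icos had 271, 223 and 364 CPM in meninges and 325, 437 and 647 CPM in lung (-0.72 ± 0.24, adjusted p = 0.14). Of 15 checkpoint genes, 1 was higher and 4 lower at an unadjusted p under 0.05, and DESeq2 called 0 and 2. Pdcd1, which encodes PD-1, was the 1 call of the 15 by edgeR, with 1.27, 1.21 and 1.93 CPM in meninges and 29.1, 13.7 and 16.04 CPM in lung (-3.77 ± 0.81, adjusted p = 0.0097). Pdcd1 was called in 12 of 16 alternatives, with adjusted p from 2.2e-05 to 0.096, and not without meninges 1 (0.083), meninges 2 (0.096), meninges 3 (0.053) or lung 1 (0.056). Klrg1, an inhibitory lectin of mature ILC2s, had 19.04, 41.5 and 20.8 CPM in meninges and 56.6, 83.2 and 73.5 CPM in lung, without overlap (-1.39 ± 0.39, adjusted p = 0.063).

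Genes of ILC2 identity were mostly not called. Of 27 tested, Rora, Lmo4 and Kit were lower and Il17rb (above) higher by edgeR, against 2.77% and 0.247% of all genes tested. At an unadjusted p under 0.05, 3 were higher and 8 lower, and DESeq2 called 1 and 4. The list median was -0.28. Summed levels did not overlap, at 10100 to 10600 CPM in meninges and 10800 to 13600 CPM in lung. Rora, the nuclear receptor required for ILC2 development, had 483, 468 and 502 CPM in meninges and 751, 967 and 1175 CPM in lung (-0.99 ± 0.18, SE; edgeR adjusted p = 0.0033), called in 15 of 16 alternatives (adjusted p from 8.1e-05 to 0.057) and not without lung 3 (0.057). Kit, the receptor for stem cell factor, had 212, 302 and 228 CPM in meninges and 629, 871 and 695 CPM in lung (-1.56 ± 0.20, adjusted p = 0.00014) and was called in all 16. Kit is also a mast cell gene. Of 18 listed markers of mast cells, basophils and eosinophils, 15 were in the table and 3 were tested, with Kit the 1 call. Of the 15, 3 were at 0 in all meningeal libraries and 7 at 0 in all lung libraries. Lmo4, a LIM-only transcription cofactor, had 208, 182 and 228 CPM in meninges and 320.4, 532 and 382 CPM in lung (-1.0 ± 0.22, adjusted p = 0.015). Lmo4 was called in 10 of 16 alternatives, with adjusted p from 0.0012 to 0.13, and not without meninges 1 (0.076), meninges 2 (0.13), meninges 3 (0.055), lung 2 (0.095) or lung 3 (0.068). Stat4, the factor of IL-12 signalling, had 91.5, 82.7 and 108 CPM in meninges and 158, 223 and 168 CPM in lung (-0.96 ± 0.25, adjusted p = 0.044). Stat4 was called in 5 of 16 alternatives, with adjusted p from 0.0075 to 0.21, and not without meninges 1 (0.14), meninges 2 (0.21), meninges 3 (0.082), lung 1 (0.077), lung 2 (0.16) or lung 3 (0.13).

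Genes of TGF-beta and BMP signalling gave 3 lower and no higher calls among 19 tested by edgeR, against 2.77% of all genes called lower. At an unadjusted p under 0.05, 0 were higher and 6 lower, and DESeq2 called 0 and 3. Notch genes gave 2 lower and no higher calls among 11 tested by edgeR. Of these 11, 0 were higher and 3 lower at an unadjusted p under 0.05, and DESeq2 called 0 and 2. Bmpr2, a BMP receptor, had 415, 205 and 270.2 CPM in meninges and 1227, 684 and 1090 CPM in lung (-1.75 ± 0.25, SE; edgeR adjusted p = 0.00037), and was called in all 16 alternatives. Like most structural markers, Bmpr2 was lowest in lung 2, and the part of other lung cells in its level was not tested. Skil and Tgif1, repressors of SMAD signalling, had 219.8, 205 and 339 CPM in meninges and 379, 683 and 665 CPM in lung for Skil (-1.18 ± 0.24, adjusted p = 0.0097) and 10.1, 8.28 and 25.2 CPM in meninges and 48.2, 85.2 and 153 CPM in lung for Tgif1 (-2.75 ± 0.50, adjusted p = 0.0037). Skil was called in 12 of 16 alternatives, with adjusted p from 0.00072 to 0.12, and not without meninges 1 (0.085), meninges 2 (0.12), lung 2 (0.075) or lung 3 (0.11). Tgif1 was called in 13 of 16 alternatives, with adjusted p from 8e-06 to 0.068, and not without meninges 1 (0.056), meninges 2 (0.055) or lung 3 (0.068). Rbpj, the DNA-binding factor of Notch signalling, had 152, 194 and 202 CPM in meninges and 328, 396 and 394 CPM in lung (-1.03 ± 0.20, adjusted p = 0.0072). Rbpj was called in 14 of 16 alternatives, with adjusted p from 0.0002 to 0.066, and not without meninges 1 (0.06) or lung 3 (0.066). Hey1, a Notch target also strong in endothelium, had 0.330, 0 and 0 CPM in meninges and 31.5, 4.36 and 44.9 CPM in lung (-7.73 ± 1.63, adjusted p = 0.014) and was lowest in lung 2. Hey1 was called in 9 of 15 alternatives, with adjusted p from 3.5e-10 to 0.47, and not without meninges 1 (0.085), meninges 2 (0.09), meninges 3 (0.077), lung 1 (0.063) or lung 3 (0.1). Its call was also lost in the fit of all 9 libraries (0.47).

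Lower genes of metabolism included enzymes of polyamine, fat and prostaglandin synthesis. Odc1, ornithine decarboxylase, which starts polyamine synthesis, had 26.9, 14.4 and 24.6 CPM in meninges and 191, 319 and 384 CPM in lung (-3.75 ± 0.33, SE; edgeR adjusted p = 3.7e-06), the 1 call among 12 tested genes of arginine and polyamine metabolism. Dgat1, the last enzyme of triglyceride synthesis, had 23.9, 39.5 and 25.7 CPM in meninges and 68.7, 290.1 and 251 CPM in lung (-2.77 ± 0.44, adjusted p = 0.0011). Irs2, the adaptor of insulin and IL-4 receptors, had 72.8, 55.6 and 63.05 CPM in meninges and 243, 558 and 382 CPM in lung (-2.62 ± 0.29, adjusted p = 4.4e-05). These 3 genes were called in all 16 alternatives, with lung 1 the lowest lung library in each. Ptgs2, the inducible cyclooxygenase, had 2.97, 0.127 and 1.20 CPM in meninges and 33.5, 32.9 and 87 CPM in lung (-5.08 ± 0.78, adjusted p = 0.00044), also called in all 16. Hpgd, which inactivates prostaglandins, had 11.6, 0.382 and 2.33 CPM in meninges and 150.5, 41.97 and 187 CPM in lung (-4.65 ± 0.66, adjusted p = 0.00035), called in 15 of 16 (adjusted p from 0.00019 to 0.11) and not with the older form of the test (0.11). Like most structural markers, Hpgd was lowest in lung 2, and the part of other lung cells in its level was not tested. Cdkn1a, the cell cycle inhibitor p21, had 6.82, 10.4 and 2.06 CPM in meninges and 71.1, 75.7 and 121 CPM in lung (-3.78 ± 0.50, adjusted p = 0.00019) and was called in all 16. None of 21 tested genes of glycolysis and hypoxia was called by edgeR (2 higher and 0 lower at an unadjusted p under 0.05; 0 and 0 by DESeq2), with a median of 0.09.

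Several abundant lower genes belonged to none of these groups and were chosen after their values were seen. Ahnak, a giant membrane scaffold protein, had 965, 1028 and 834 CPM in meninges and 2866, 2865 and 2843 CPM in lung, a log2 difference of -1.60 ± 0.14 (SE; edgeR adjusted p = 2.9e-06). The 3 lung libraries agreed closely for this gene. Crem, a factor induced by cyclic AMP, had 12.6, 26.03 and 50.9 CPM in meninges and 152, 352 and 438 CPM in lung (-3.43 ± 0.42, adjusted p = 0.00012). Ifrd1 had 26.2, 27.4 and 62.99 CPM in meninges and 318, 594 and 906 CPM in lung (-3.98 ± 0.38, adjusted p = 6.8e-06), and Epas1, which encodes the hypoxia-inducible factor HIF-2 alpha, had 249, 215 and 146 CPM in meninges and 1126, 669.9 and 832 CPM in lung (-2.10 ± 0.23, adjusted p = 4e-05). All 4 were called in all 16 alternatives without overlap of the tissues. Epas1 is also an endothelial gene, and it was lowest in lung 2.

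The largest falls outside the structural lists were in genes nearly absent from the meningeal libraries, and not all of them are known from ILC2s. Il1b, an inflammatory cytokine, had 0.0550, 0 and 0 CPM in meninges and 27.1, 27.9 and 22.6 CPM in lung (-9.83 ± 1.70, SE; edgeR adjusted p = 0.0033). Hdc, the enzyme that makes histamine, had 0.715, 0 and 0 CPM in meninges and 29.3, 45.6 and 37.03 CPM in lung (-7.08 ± 1.07, adjusted p = 0.00077), and Cxcl2, a neutrophil chemokine, had 0, 0.509 and 2.86 CPM in meninges and 40.6, 93.6 and 131 CPM in lung (-6.39 ± 0.78, adjusted p = 4.8e-05). These 3 genes of inflammation were called in all 16 alternatives. None of 5 tested neutrophil markers was called by edgeR (2 higher and 0 lower at an unadjusted p under 0.05; 0 and 0 by DESeq2), and S100a9 had 12.6, 2.55 and 37.1 CPM in meninges and 0.938, 1.35 and 5.02 CPM in lung, with the higher values in meninges. Cd36, a fatty acid receptor of macrophages, fat and capillaries, had 2.75, 2.48 and 0.0666 CPM in meninges and 249, 70.6 and 320.2 CPM in lung (-6.86 ± 0.68, adjusted p = 4.5e-06). Emp2, known from alveolar epithelium, had 1.32, 0 and 0.0666 CPM in meninges and 96.4, 26.1 and 55.5 CPM in lung (-6.86 ± 0.97, adjusted p = 0.00026), and Postn, a matrix protein of fibroblasts, had 1.60, 0 and 0 CPM in meninges and 50.2, 39.5 and 50.8 CPM in lung (-6.29 ± 0.86, adjusted p = 0.00019). The last 3 were also called in all 16 alternatives and were lowest in lung 2, as were most structural markers. Tnfsf18, the ligand of the costimulatory receptor GITR, had 0.330, 0.509 and 0.266 CPM in meninges and 22.4, 16.6 and 18.4 CPM in lung (-5.68 ± 1.10, adjusted p = 0.006). Tnfsf18 was called in 14 of 16 alternatives, with adjusted p from 1.9e-10 to 0.057, and not without meninges 1 (0.057) or meninges 2 (0.052).

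Markers of structural lung cells were far higher in the lung libraries and are set apart, since ILC2s are not known to express most of them. Of 45 lung epithelial markers, 42 were in the table, 21 passed the filter on low counts and 11 were called lower. Their summed level was 24.6 to 50 CPM in meninges and 3120, 1000 and 2010 CPM in lung 1 to 3, and 20 of the 42 were at 0 in all meningeal libraries. A marker that passed the filter through the lung libraries alone had to differ, so these counts describe and do not weigh. Of 43 tested endothelial markers, 17 were called lower, with sums of 687, 160 and 307 CPM in meninges and 2900, 987 and 2700 CPM in lung. Of 48 tested fibroblast markers, 12 were called lower, with sums of 424, 85.2 and 171 CPM in meninges and 1220, 692 and 1710 CPM in lung. No marker of these 3 lists was called higher by edgeR or DESeq2 or had an unadjusted p under 0.05 in that direction. Markers of smooth muscle and pericytes gave no call among 12 tested by edgeR (0 higher and 2 lower at an unadjusted p under 0.05; 0 and 0 by DESeq2). Mesothelial markers gave none among 3 (0 higher and 1 lower at an unadjusted p under 0.05; 0 and 0 by DESeq2). The sums of muscle markers overlapped, with 30.1 to 218 CPM in meninges and 83.8 to 299 CPM in lung.

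Scgb1a1, the secretoglobin of club cells in the airway, had 1.05, 0 and 0 CPM in meninges and 1481, 625 and 664 CPM in lung (-11.19 ± 0.62, SE; edgeR adjusted p = 4.9e-09). Cyp2f2, another club cell gene, had 0.0550, 0.764 and 0 CPM in meninges and 57.97, 72.98 and 15.9 CPM in lung (-7.46 ± 1.20, adjusted p = 0.0014). Both were called in all 15 alternatives that tested them. The surfactant genes of alveolar type 2 cells were not called in spite of their lung levels. Sftpc had 0, 0.0636 and 0 CPM in meninges and 301, 2.33 and 324 CPM in lung (adjusted p = 0.37), and Sftpa1 had 0.110, 0 and 0.0666 CPM in meninges and 271, 11.5 and 217 CPM in lung (adjusted p = 0.2). Lung 2 was far below lung 1 and lung 3 for both, and without it both were called, with adjusted p of 6.1e-06 for Sftpc and 1.2e-05 for Sftpa1. Over all alternatives the adjusted p of Sftpc ran from 3.6e-07 to 0.58 and that of Sftpa1 from 1.7e-23 to 0.46. Tmem100, a gene of lung endothelium, was at 0 in meninges and had 63.3, 24.5 and 107 CPM in lung, at least 351-fold lower. Inmt and Bmp3, on the fibroblast list, were at least 256-fold and 152-fold lower, and Cldn18, a tight junction gene of lung epithelium, at least 296-fold lower (at least 195-fold without lung 1). The calls of Tmem100, Inmt and Bmp3 held in all 15 alternatives. Cldn18 was called in 12 of 14 alternatives, with adjusted p from 3.2e-08 to 0.051, and not without meninges 1 (0.051) or lung 3 (0.05).

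**Figure D5:**
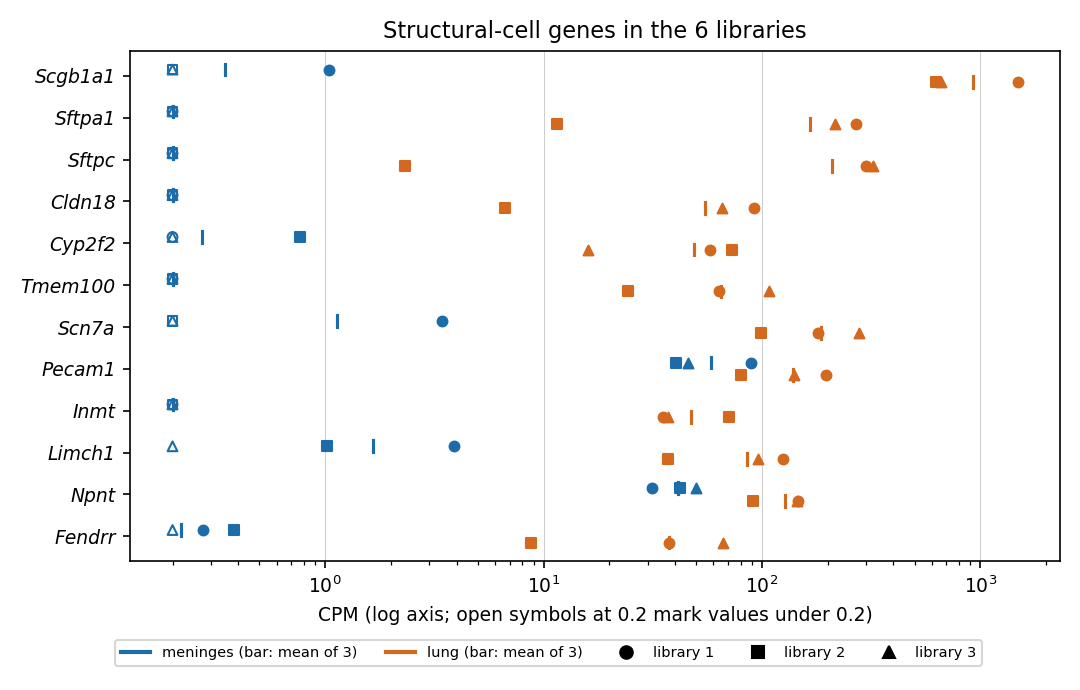
CPM of 12 marker genes of lung epithelium, endothelium and fibroblasts (x axis, log scale), with 1 symbol per library (blue, meninges; orange, lung) and a bar at the mean of 3; open symbols at the left edge mark values under 0.2 CPM. Lung 2 (orange square) is the lowest lung library for Sftpa1, Sftpc and Cldn18, and the highest for Inmt and Cyp2f2.

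Lung 2 was the lowest lung library for 30 of the 40 lower genes on structural lists (75%), against 36.8% of all genes tested and 162 of the 353 other lower genes. The lower genes that meningeal ILC2s also expressed showed another pattern. Of the 128 with at least 10 CPM in each meningeal library, the lowest lung library was lung 1 for 93, lung 2 for 20 and lung 3 for 15. Npnt, a matrix protein on the fibroblast list, was the 1 structural marker among these 128, with 31.4, 41.95 and 50 CPM in meninges and 147, 91.5 and 145 CPM in lung (-1.65 ± 0.32, SE; edgeR adjusted p = 0.0054). Npnt was called in 12 of 15 alternatives, with adjusted p from 6.4e-05 to 0.08, and not without meninges 1 (0.056) or lung 3 (0.061). All structural markers together took 0.0508% to 0.175% of the scaled counts in meninges and 0.296% to 0.756% in lung. When the 207 structural-list genes in the table were left out of the fit, 29 genes were higher and 342 lower.

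Markers of other blood cells gave few calls. Of 15 B cell markers, Ighd and Bank1 were called lower and none higher by edgeR (2 higher and 3 lower at an unadjusted p under 0.05; 0 and 1 by DESeq2). Ighd, the IgD heavy chain gene, had 2.92, 0 and 0 CPM in meninges and 16.1, 20.1 and 19.1 CPM in lung (-4.07 ± 0.98, SE; edgeR adjusted p = 0.022). Ighd was called in 8 of 16 alternatives, with adjusted p from 0.0077 to 0.41, and not without meninges 1 (0.058), meninges 2 (0.14), meninges 3 (0.11), lung 1 (0.053), lung 2 (0.052) or lung 3 (0.087). Its call was also lost by DESeq2 (0.41) and with the older form of the test (0.27). Bank1, a B cell scaffold protein named after its values were seen, had 5.94, 0.891 and 0.133 CPM in meninges and 20.9, 15.5 and 43.1 CPM in lung (-3.41 ± 0.83, adjusted p = 0.027). Bank1 was called in 10 of 16 alternatives, with adjusted p from 0.0064 to 0.19, and not without meninges 2 (0.17), meninges 3 (0.14), lung 1 (0.058) or lung 3 (0.19). Ighm, the IgM heavy chain gene, had 674, 182 and 878 CPM in meninges and 174, 288 and 176 CPM in lung with overlap (adjusted p = 0.26), and the B cell sums were 253 to 1300 CPM in meninges and 318 to 389 CPM in lung. Of 16 macrophage and monocyte markers, Chil3, a lectin of alveolar macrophages, was lower with 4.95, 0 and 0 CPM in meninges and 100.2, 12.9 and 75.7 CPM in lung (-5.13 ± 0.91, adjusted p = 0.0021), called in 14 of 16 alternatives (adjusted p from 0.00042 to 0.32) and not by DESeq2 (0.32) or with the older form of the test (0.3). Lyz2, the lysozyme of these cells, had 41.6, 15.6 and 3.66 CPM in meninges and 332, 6.91 and 428 CPM in lung (adjusted p = 0.33). The macrophage sums were 38.7 to 138 CPM in meninges and 505, 74.3 and 640 CPM in lung, low in lung 2 as for the structural markers. Of 10 tested MHC class II genes, 9 had a negative fold change, with a median of -1.49. At an unadjusted p under 0.05, 1 was higher and 5 lower, and DESeq2 called 0 and 4. Their summed level was 76.1 to 209 CPM in meninges and 319 to 365 CPM in lung, without overlap. H2-Ab1 was the 1 call of the 10 by edgeR, with 24.6, 5.35 and 10.8 CPM in meninges and 48.3, 50.01 and 64.9 CPM in lung (-1.96 ± 0.48, adjusted p = 0.032). H2-Ab1 was called in 8 of 16 alternatives, with adjusted p from 0.0062 to 0.18, and not without meninges 2 (0.18), meninges 3 (0.14), lung 1 (0.083), lung 2 (0.073) or lung 3 (0.18). Stab2, a scavenger receptor known from endothelium that both tissues expressed here, had 583, 804 and 1090 CPM in meninges and 1320, 1662 and 1288 CPM in lung (-0.79 ± 0.20, adjusted p = 0.035). Stab2 was called in 8 of 16 alternatives, with adjusted p from 0.0094 to 0.19, and not without meninges 1 (0.17), meninges 2 (0.19), lung 1 (0.086), lung 2 (0.17) or lung 3 (0.11). Markers of natural killer cells (3 tested), dendritic cells (5) and red cells and platelets (4) gave no call by edgeR or DESeq2, and 1 higher and 3 lower had an unadjusted p under 0.05. Of 8 tested genes of other innate lymphoid cells, none was called by edgeR (1 higher and 2 lower at an unadjusted p under 0.05; 0 and 1 by DESeq2).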

How the data were processed

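RNA was measured in 9 libraries, of which the 3 of uninjured meninges and the 3 of uninjured lung were analysed here. The authors deposited read counts for each gene as whole numbers, with no scaling. The submitters' processing notes name STAR, HTSeq, FastQC and the build mm9. Tool versions and whether counting used strand are not given in the sources used here, and reads of a gene and an overlapping or antisense partner cannot be separated. The table holds 23466 genes by Ensembl identifier, 15969 of them with a symbol. A reference table gave symbols by identifier to 7407 more, and 90 stayed without one. Every pair of libraries differed by more than sampling noise (lowest chi-square per degree of freedom 62.8).

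The 6 libraries alone were fitted in edgeR 4.0.16 (R 4.3.3). Genes were kept by filterByExpr, scaling used the trimmed mean of M values, and robust quasi-likelihood F tests were fitted with a mean per tissue, in the newer form of the test (legacy option off). Calls have a Benjamini-Hochberg adjusted p under 0.05 over the 14177 genes tested. Standard errors were obtained from F, as the size of the log2 fold change over its square root. The common biological coefficient of variation was 0.758. For a gene at 0 in a tissue, the fold is at least the other tissue's mean over the mean limit of 3 counts per library. Gene lists are described by counts and medians, without a set test, and the medians given were the same with such genes set at their bound. The procedure was tested on simulated data.

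The members and lists were chosen with earlier results of these data known. Genes named are up to 30 called higher, 15 higher and nearest to the threshold with at least 10 CPM in each meningeal library, and the 20 largest falls outside structural lists with at least 10 CPM in each lung library. Up to 4 members of each program list, 1 or 2 of each marker list and a fixed set were added, and fewer are named than the rule gives. Antigen receptor segments, ribosomal, small and predicted RNAs were left out of the first 3 parts. The alternatives were DESeq2 1.42.0, its size factors, upper-quartile scaling, no filter, a stricter filter (10 CPM in 3 libraries), all 9 libraries, the older form of the test, fits without mitochondrial or structural-list genes, a replicate block, and leaving out each library.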

Additional observations from a re-analysis of the deposited data

How the results depend on the processing

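DESeq2 called 717 genes, 127 higher and 590 lower in meninges, 543 of the latter outside the structural lists. The older form of the quasi-likelihood test called 226, 13 higher and 213 lower, 192 outside and 21 on the structural lists. The stricter filter gave 55 higher genes and the fit of all 9 libraries 13. Leaving out 1 library gave 171 to 382 calls, 9 to 22 higher and 158 to 364 lower, with 135 to 314 lower outside and 21 to 50 on the structural lists. The low values came without lung 3 (171 calls, 162 lower) and meninges 2 (177, 158 lower), and the fits without a library have fewer samples; the cause of the other shifts was not tested. The replicate numbers were shared between the tissues, and the labels do not say whether they mark pairs. Same-numbered libraries correlated at 0.0402, 0.101 and 0.00921 in their deviations, and differently numbered ones at -0.115 to 0.0908. Meninges 1 correlated best with lung 3 (0.0908), and meninges 2 and meninges 3 with their same-numbered lung library. Whether the numbers mark pairs cannot be told from these values. With the replicate number as a block, 390 genes were called, 30 higher and 360 lower, 348 of them shared with the unblocked fit. For single named genes, 3222 values under an alternative kept their side of the threshold, 430 lost it, 86 gained it, and none changed direction among those called. Replication and depth limit scarce genes most, with a median standard error of 0.239 on the log2 scale at 100 CPM or more and 1.01 under 10 CPM.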

Other observations

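Some further gene groups were measured in the same 6 libraries. Of 13 tested glucocorticoid-induced genes, Irs2 and Errfi1 were lower and Ddit4 higher in meninges by edgeR, against 2.77% and 0.247% of all genes. At an unadjusted p under 0.05, 1 was higher and 7 lower, and DESeq2 called 1 and 2. The list median was -1.08 against -0.02 over all genes. Errfi1, a feedback inhibitor of EGF receptor signalling, had 17.5, 14.4 and 0.200 CPM in meninges and 40.4, 40.4 and 78.2 CPM in lung (log2 fold change -2.26 ± 0.58, SE; edgeR adjusted p = 0.04). Its call was lost without each of the 6 libraries in turn (0.072 to 0.27) and by DESeq2 (0.46), and it held in 5 of 16 alternatives (adjusted p from 0.018 to 0.46). Per1, a clock gene that glucocorticoids also induce, had 85.6, 54.0 and 61.4 CPM in meninges and 142, 185 and 102 CPM in lung, without overlap and without passing the test (edgeR adjusted p = 0.059). Of 13 tested circadian genes, on a list that does not hold Per1, none was called by edgeR or DESeq2 and none had an unadjusted p under 0.05. Of 16 tested genes of the BCL2 family and cell death, Bcl2l11, which encodes the death-promoting BIM, was the 1 call, with 84.1, 83.9 and 70.9 CPM in meninges and 135, 199 and 170 CPM in lung (log2 fold change -1.07 ± 0.26, SE; edgeR adjusted p = 0.026). Bcl2l11 was called in 9 of 16 alternatives (adjusted p from 0.002 to 0.12) and not without meninges 1 (0.086), meninges 2 (0.11), meninges 3 (0.11), lung 2 (0.11) or lung 3 (0.12). Tob2, an antiproliferative gene, had 35.2, 40.4 and 33.4 CPM in meninges and 75.9, 89.2 and 134 CPM in lung (-1.46 ± 0.33, adjusted p = 0.019). Tob2 was called in 11 of 16 alternatives (adjusted p from 0.00093 to 0.18) and not without meninges 1 (0.093), meninges 2 (0.086), meninges 3 (0.09) or lung 3 (0.18).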
